A study of Mus musculus with 4 samples.

Results

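The genes described here are 9 synaptic cell adhesion genes, the neurexins Nrxn2 and Nrxn3, the neuroligins Nlgn1, Nlgn2 and Nlgn3, the leucine-rich repeat proteins Lrrtm1 and Lrrtm2, and the L1 family members Nrcam and L1cam. They were taken by symbol from a table of counts that held 26301 genes; the rule uses no measured value, but the genes were picked with earlier results of these data in view. RNA was measured in mouse embryonic stem cells (ESCs) of 2 genotypes, WT (the N6 line) and REST-/- (the N8 line, mutant in both copies of Rest), with 2 biological replicates of each. Both lines were grown in serum and LIF on irradiated mouse embryonic fibroblasts, then carried through passages on gelatin to remove these feeder cells before RNA was taken. Each genotype was 1 line, so a difference of genotype and a difference between the lines cannot be told apart. The comparison asks how the level of each gene differs when REST is lost from ESCs.

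Neurexins are presynaptic membrane proteins, and neuroligins and LRRTMs are postsynaptic proteins that bind them across the synaptic cleft. Long alpha and short beta neurexins are made from separate promoters of the same gene. L1cam and Nrcam are immunoglobulin superfamily proteins of growing axons, linked to the cytoskeleton by ankyrins, and Nrcam is also found at nodes of Ranvier. All are mainly known from neurons. REST is a zinc finger repressor that binds a DNA element named RE1, and holds many neuronal genes at low levels in ESCs and other cells that are not neurons.

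The RE1 element was searched for near the members as CAGNACCNNGGACAG, on both strands of mm9, where N is any base and 12 of the 15 positions are informative. L1cam and Nrxn3, 2 of the 9 members, held a match to all 12 positions within 20 kb of a start site annotated by GENCODE M1. Over all 21896 genes with a position, 3.78% did so. L1cam was the 1 member with such a match within 1 kb, which 0.603% of genes had. It held 2 matches with first bases 30 bases apart, at chrX:71114880-71114894 and chrX:71114850-71114864, both in an intron and on the minus strand, the strand of the gene. They lay 256 and 286 bases downstream of the nearest start site, which is internal to the gene (13 are annotated for L1cam), and 26557 and 26587 bases downstream of the 5′ end of the gene. The Nrxn3 match lay in an intron at chr12:89969364-89969378 on the minus strand, 5918 bases downstream of a start site and 8051 bases from the 5′ end of the gene. Nrxn2 held no full match, and its nearest match to 11 positions lay in an intron at chr19:6427326-6427340 on the minus strand, 590 bases upstream of an internal start site and 8602 bases downstream of the 5′ end of the gene. Counted from the 5′ end alone, 1 member (Nrxn3) had a full match within 20 kb, against 2.99% of genes, and 0 had one within 1 kb, against 0.384%. These sequences are shown because they let the spacing of the L1cam pair and the mismatch in Nrxn2 be read directly. Each is given 5′ to 3′ on the strand of the match with 15 flanking bases, and capitals mark the informative positions that matched.
L1cam, both matches, chrX:71114835-71114909, minus strand: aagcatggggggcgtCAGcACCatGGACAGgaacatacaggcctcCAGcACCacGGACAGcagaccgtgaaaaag
Nrxn3, all 12 positions: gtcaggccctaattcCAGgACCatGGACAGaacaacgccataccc
Nrxn2, 11 positions: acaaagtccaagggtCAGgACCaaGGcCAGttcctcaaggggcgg

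Nlgn2, Nlgn3, Lrrtm1 and Lrrtm2 held no match to 11 or more positions inside the gene or within 20 kb of it, and the matches to 11 positions in Nlgn1 and Nrcam lay farther than 20 kb from a start site. At 11 or more positions, 3 of the 9 members had a match within 20 kb of a start site, against 39.4% of all genes. In the 300-base promoter windows of RefSeq on GRCm38.p6, around each start site, 6 members had 10 windows and none of these held a match to 11 or more positions, which 0.438% of all 32851 windows held. A match describes the letters of the reference and is not a measurement of REST binding.

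**Figure D1:**
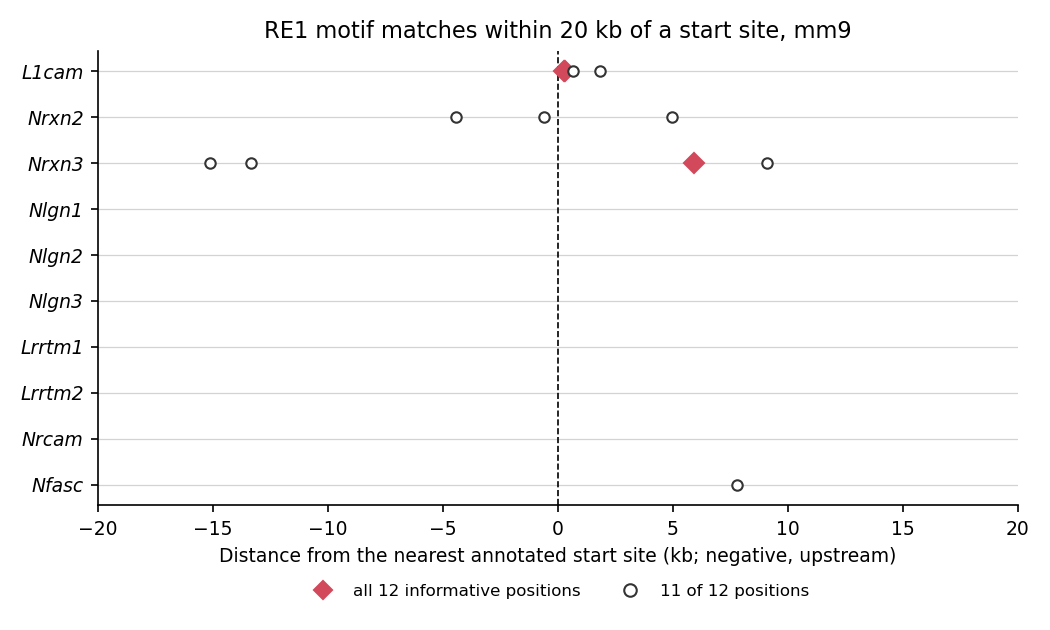
RE1 motif matches by their distance in kb from the nearest annotated start site in mm9, for the 9 members and for Nfasc. Filled diamonds are matches to all 12 informative positions and open circles to 11 of them; the L1cam pair, 256 and 286 bases downstream, falls on a single diamond, while 6 members have no mark within 20 kb.

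Library depth was 30953863 and 27061056 counts for WT and 25461270 and 22293966 for REST-/- ESCs. At these depths a count of 0 allows a level of up to 3 counts, or 0.0969 and 0.112 CPM in WT and 0.116 and 0.135 CPM in REST-/-, for counting error only. CPM are counts divided by the scaled size of their library. Rest had 7908 and 6233 counts in WT, against 4244 and 3890 in REST-/- ESCs, summed over the whole gene, so they cannot show whether a deleted part was read. All 10 pluripotency markers were detected, and their summed level was 4954 to 5083 CPM in WT and 4252 to 4393 CPM in REST-/- ESCs. Summed levels of 10 primitive endoderm markers were 258 and 429 CPM in WT and 521 and 629 CPM in REST-/-. For 10 neural progenitor markers they were 68.9 and 164 CPM in WT and 135 and 157 CPM in REST-/-, and for 10 neuron markers 242 and 262 CPM in WT and 332 and 363 CPM in REST-/-. The 10 fibroblast markers, for the feeder cells, summed to 42.9 and 48.3 CPM in WT, 127 CPM in REST-/- replicate 1 and 52.5 CPM in REST-/- replicate 2.

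Of the 9 members, 5 had counts that allowed a comparison between genotypes, Nrxn2, Nlgn2, Nlgn3, Nrcam and L1cam, and each of these had at least 42 counts in every library. The other 4, Nrxn3, Nlgn1, Lrrtm1 and Lrrtm2, had 12 counts between them over all libraries, at most 4 in any library, and were not tested. As RPKM, which is CPM per kilobase of annotated exon, the WT level was highest for Nlgn2 at 8.03, followed by L1cam at 1.44, Nrxn2 at 0.713, Nrcam at 0.28 and Nlgn3 at 0.204. The WT libraries of neighbours in this order did not overlap. In REST-/- ESCs the order of the first 3 was kept without overlap, at 7.34, 1.97 and 1.01 RPKM, but the libraries of Nrcam (0.462 and 0.229 RPKM) and Nlgn3 (0.214 and 0.258 RPKM) overlapped. Lengths were those of all annotated exons joined, so a gene read mainly as a short isoform, such as a beta neurexin, has its RPKM understated. Among the 15444 genes tested, 67.4% had a lower WT level in CPM than Nlgn2, 38.7% than L1cam, 37.5% than Nrxn2, 20.2% than Nrcam and 19.8% than Nlgn3.

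**Figure D2:**
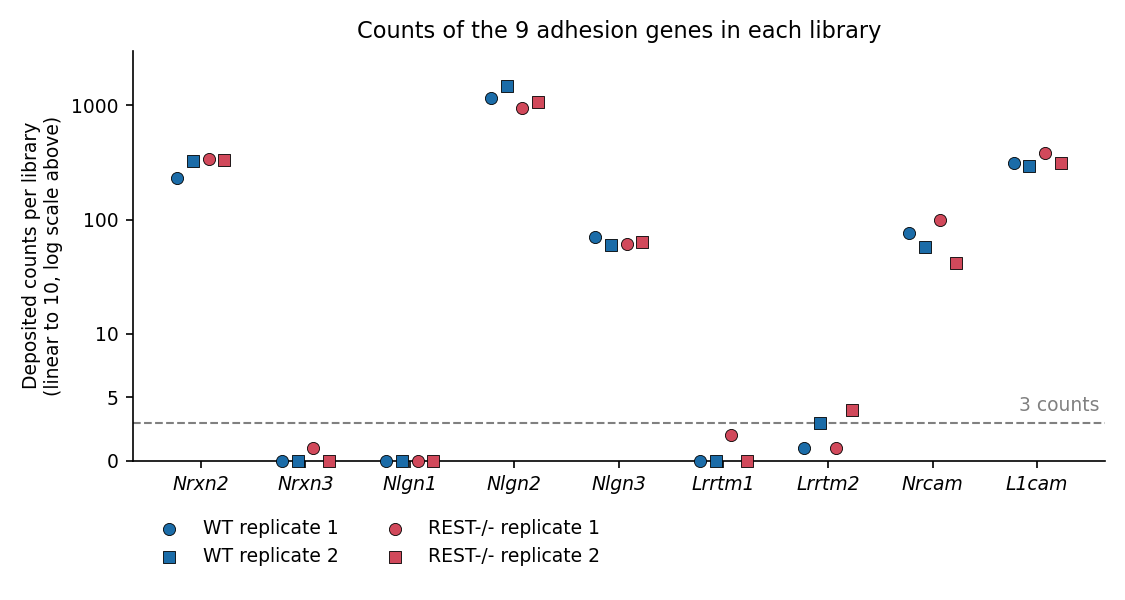
Deposited counts of the 9 members (vertical axis, linear to 10 and log above) in the 2 WT libraries (blue) and the 2 REST-/- libraries (red), with circles for replicate 1, squares for replicate 2 and a dashed line at 3 counts. Nlgn2 has 941 to 1484 counts and 4 members lie at 0 to 4 counts in every library.

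Neurexins. Of the 2 members, Nrxn2 was read in both genotypes, without a call between them, and Nrxn3 was not detected above 3 counts and was not tested. Nrxn2 (gene 18190, chromosome 19 of mm9 from 6418731 to 6544169, plus strand) had 233 and 326 counts in WT, against 336 and 329 in REST-/- ESCs, or 7.53 and 12.2 CPM against 13 and 14.9 CPM. Both REST-/- libraries lay above both WT libraries, but the gap between the groups was smaller than the gap between the WT libraries. The means were 9.85 ± 3.28 CPM (SD, n = 2) for WT, against 13.9 ± 1.31 CPM (SD, n = 2) for REST-/-. The log2 fold change of REST-/- over WT was 0.50 (standard error 0.32, 95% interval -0.35 to 1.35, unadjusted p = 0.184, adjusted p = 1 by edgeR's quasi-likelihood test). In bulk RNA, fewer cells with a transcript and less of it per cell cannot be told apart, here and for every gene below. The size of the Nrxn2 difference turned on the WT libraries, being 0.19 on the log2 scale without WT replicate 1 and 0.89 without WT replicate 2. Exons of Slc22a12, on the opposite strand, share 669 bases with those of Nrxn2, but that gene had 0 counts in every library. Gm14964 and Gm14967, processed transcripts on the opposite strand, share 207 and 129 exon bases with Nrxn2, and no counts for them were examined.

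Nrxn3 (gene 18191, chromosome 12 from 89961320 to 91573375, plus strand), the other neurexin among the members and the holder of a full RE1 match, had 0 and 0 counts in WT, against 1 and 0 in REST-/- ESCs. It was not detectable at this depth in either genotype. Of the 827 genes with a full match within 20 kb of a start site, 110 (13.3%) had 3 counts or fewer in every library, as did 26.5% of all 21896 genes with a position.

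Neuroligins. Nlgn2 and Nlgn3 were both read and neither was called different between genotypes, and Nlgn1 had no count at all. Nlgn2 (gene 216856, chromosome 11 from 69636624 to 69651286, minus strand), the neuroligin of inhibitory synapses, had 1160 and 1484 counts in WT, against 941 and 1074 in REST-/- ESCs. In CPM these were 37.5 and 55.4 against 36.4 and 48.5, with replicate 2 above replicate 1 in both genotypes and the groups overlapping. The means were 46.4 ± 12.7 CPM (SD, n = 2) and 42.5 ± 8.53 CPM (SD, n = 2). The log2 fold change was -0.13 (standard error 0.27, unadjusted p = 0.656, adjusted p = 1 by edgeR's quasi-likelihood test), and its 95% interval allows a ratio of REST-/- to WT from 0.555 to 1.51. It was above 0 without WT replicate 2 (0.18) or without REST-/- replicate 1 (0.067). Nlgn2 was the member of the highest level and the only tested one whose fitted difference was below 0.

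Nlgn3 (gene 245537, chromosome X from 98491178 to 98521302, plus strand), found at excitatory and inhibitory synapses, had 70 and 60 counts in WT, against 61 and 63 in REST-/- ESCs. Scaled to library size these were 2.26 and 2.24 CPM against 2.36 and 2.84 CPM, so that both REST-/- libraries lay narrowly above both WT libraries. The means were 2.25 ± 0.0148 CPM (SD, n = 2) and 2.60 ± 0.342 CPM (SD, n = 2). The log2 fold change was 0.21 (standard error 0.32, unadjusted p = 0.541, adjusted p = 1 by edgeR's quasi-likelihood test), with a 95% interval for the ratio from 0.647 to 2.06. Without REST-/- replicate 2 the log2 fold change was 0.064. Nlgn3 shares 749 exon bases on the same strand with Med12, a Mediator subunit with 2196 to 3811 counts per library and a log2 fold change of -0.35, and how reads in the shared bases were assigned is not given in the sources used here. Nlgn1 (gene 192167, chromosome 3 from 25330733 to 26032656, minus strand), the neuroligin of excitatory synapses, had 0 counts in each of the 4 libraries.

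LRRTMs. Lrrtm1 and Lrrtm2, which compete with neuroligins for neurexins at excitatory synapses, were both at the limit of detection. Lrrtm1 (gene 74342, chromosome 6 from 77192683 to 77207785, plus strand) had 0 and 0 counts in WT, against 2 and 0 in REST-/- ESCs. Lrrtm2 (gene 107065, chromosome 18 from 35368665 to 35374678, minus strand) had 1 and 3 counts in WT, against 1 and 4 in REST-/- ESCs, the largest count of any untested member. No fold is given for either gene. Both sit within an intron of an alpha-catenin gene on the opposite strand. Ctnna1, which holds Lrrtm2, was among the well read genes with 19878 to 24135 counts per library, and Ctnna2, which holds Lrrtm1, had 15 and 20 counts in WT, against 28 and 23 in REST-/- ESCs. The paralogs Lrrtm3 and Lrrtm4 had at most 1 count in any library.

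L1 family. L1cam had the lowest p of the 5 tested members and Nrcam the widest interval. L1cam (gene 16728, chromosome X from 71099117 to 71141444, minus strand) had 313 and 296 counts in WT, against 385 and 312 in REST-/- ESCs, or 10.1 and 11.1 CPM against 14.9 and 14.1 CPM. The groups did not overlap, and the gap between them was wider than either group's own spread. The means were 10.6 ± 0.665 CPM (SD, n = 2) and 14.5 ± 0.577 CPM (SD, n = 2), a ratio of 1.37 with a 95% interval from 0.922 to 2.04. The log2 fold change was 0.45 (standard error 0.22, unadjusted p = 0.0949, adjusted p = 0.887 by edgeR's quasi-likelihood test), and with each library left out in turn it lay between 0.39 and 0.52. L1cam and Nlgn3 are X-linked, and the median log2 fold change was -0.40 over 540 X-linked genes tested and 0.0046 over 13645 genes on other chromosomes. Arhgap4 shares 100 exon bases with L1cam on the same strand and had 267 and 224 counts in WT, against 176 and 119 in REST-/- ESCs, a log2 fold change of -0.48.

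Where the L1cam difference stood among genes with RE1 matches depended on the window around the start sites, internal ones such as that of L1cam included. Of 629 tested genes with a full match within 20 kb, 171 had a larger log2 fold change than L1cam, and the median was 0.11, with quartiles of -0.10 and 0.50. Of 103 tested genes with a full match within 1 kb of any annotated start site, 65 had a larger log2 fold change than L1cam; the median of the 103 was 1.12, with quartiles of 0.23 and 2.38, and 1 of them was called. L1cam was 1 of 6 tested genes with at least 2 full matches in that window, and 4 of the 6 had a larger log2 fold change. Its WT level was on the high side among the 103, whose median was 3.53 CPM; 33 of them were higher in WT than L1cam. These counts describe the genes and were not tested.

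Nrcam (gene 319504, chromosome 12 from 45429872 to 45702951, plus strand) had 77 and 58 counts in WT, against 99 and 42 in REST-/- ESCs, or 2.49 and 2.17 CPM against 3.83 and 1.90 CPM. The REST-/- libraries were the highest and the lowest of the 4, so the groups overlapped. The means were 2.33 ± 0.228 CPM (SD, n = 2) and 2.86 ± 1.37 CPM (SD, n = 2). The log2 fold change was 0.30 (standard error 0.45, 95% interval -0.89 to 1.5, unadjusted p = 0.535, adjusted p = 1 by edgeR's quasi-likelihood test), and it was -0.29 without REST-/- replicate 1 and 0.71 without REST-/- replicate 2. REST-/- replicate 1, the library of the highest Nrcam level, was also that of the highest summed fibroblast marker level (127 CPM, against 42.9 to 52.5 CPM in the other 3). Of the 10 fibroblast markers 8 were tested, 7 of them with a log2 fold change above 0, their median was 1.60, and Lum, a keratan sulfate proteoglycan, was at 0 in all libraries. The part of fibroblast RNA in the Nrcam values was not tested. The other L1 family members were Chl1, with 21 and 6 counts in WT, against 18 and 5 in REST-/- ESCs, and Nfasc, with 303 and 537 counts in WT, against 638 and 640 in REST-/- ESCs. Chl1 counts were higher in replicate 1 of each genotype, and the groups overlapped. Both REST-/- libraries of Nfasc, which encodes neurofascin, lay above both WT libraries, with a log2 fold change of 0.85 (standard error 0.39, unadjusted p = 0.0891, adjusted p = 0.871 by edgeR's quasi-likelihood test). Leaving out WT replicate 1 gave 0.41, and leaving out WT replicate 2 gave 1.45.

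Across the members, 0 of 5 tested were called, and over all 15444 genes tested edgeR's quasi-likelihood test called 9 (0.0583%), of which 8 were higher and 1 lower. At an unadjusted p under 0.05 the counts were 0 of 5 members and 1036 of all genes. By edgeR's exact test, with the dispersion estimates that the study names, 277 genes (1.79%) were called under tag-wise dispersion and 344 (2.23%) under common dispersion, and DESeq2 called 238 (1.54%), with 0 members among them in each case. Both REST-/- libraries lay above both WT libraries for 3 of the 5 members (Nrxn2, Nlgn3 and L1cam) against 16.5% of all genes tested, and below them for 0 members against 15.4%. The count is given as a description. The median log2 fold change of the 5 was 0.30, and that of all genes tested was -0.0047. Of all genes tested, 10.5% had a higher log2 fold change than Nrxn2, 11.7% than L1cam, 17.1% than Nrcam, 22.8% than Nlgn3 and 69.6% than Nlgn2. With 2 libraries a group the intervals were wide, and the upper bounds still allowed ratios of 2.54 for Nrxn2, 2.82 for Nrcam and 2.04 for L1cam. The fit behind these intervals had no replicate block. With the replicate number as a block, 2621 genes were called over the whole table, 0 members among them. The lowest adjusted p-values of members by edgeR's quasi-likelihood test were then 0.0597 for L1cam and 0.0615 for Nrxn2. The summed neuron marker level was also higher in both REST-/- libraries (332 and 363 CPM) than in both WT libraries (242 and 262 CPM), with 7 of 8 tested markers above 0 in log2 fold change and 0 called. So was the summed primitive endoderm marker level (521 and 629 CPM against 258 and 429 CPM), with 10 of 10 tested markers above 0, a median of 0.71, 7 with both REST-/- libraries above both WT libraries and 0 called. Of 6 tested neural progenitor markers 2 were above 0 and 4 below, with a median of -0.45. Both REST-/- libraries lay below both WT libraries for 3 of these and above them for 0. Of 10 pluripotency markers 4 were above 0 and 6 below, with a median of -0.21. Both REST-/- libraries lay below both WT libraries for 4 of these and above them for 1. No marker of these 2 lists was called. The part of these marker differences in the members' values was not tested.

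**Figure D3:**
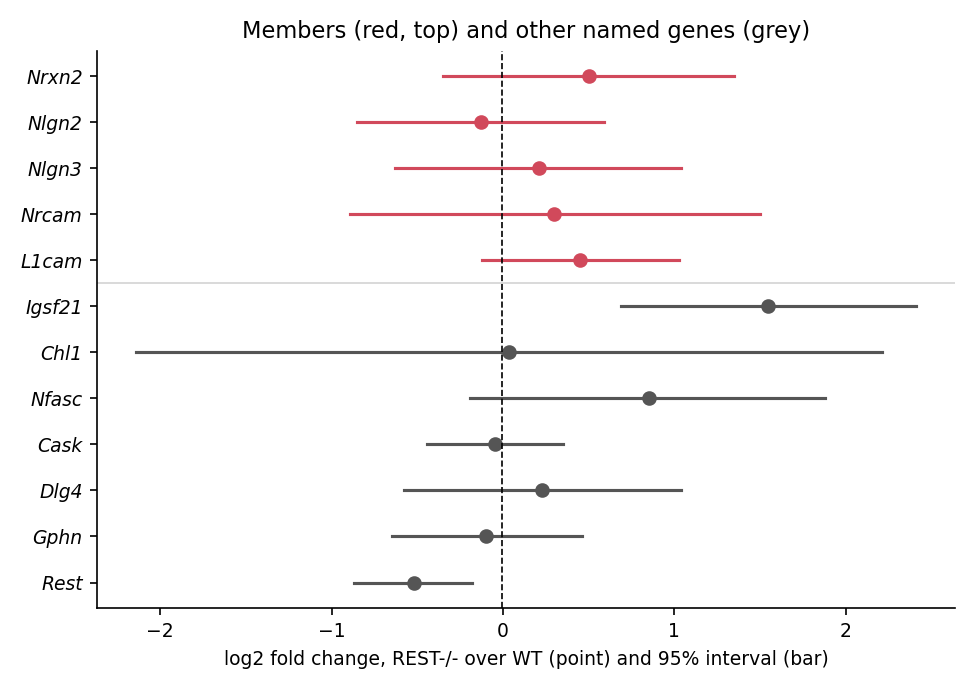
Log2 fold change of REST-/- over WT (points) with 95% intervals (bars) from edgeR's quasi-likelihood fit, for the 5 tested members (red) and 7 other named genes (grey); the dashed line is the median of all genes tested, -0.0047. Every member's interval crosses the dashed line, while that of Igsf21 (0.69 to 2.41) lies above it and that of Rest (-0.87 to -0.18) below. The intervals are not adjusted for the number of genes, and no gene shown was called. Igsf21 was named for having the largest log2 fold change of its list.

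**Figure D4:**
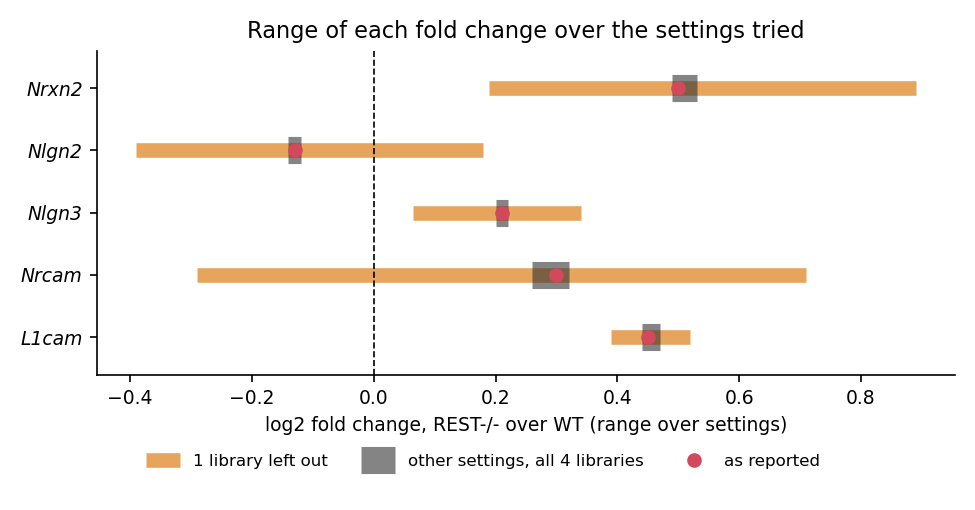
Range of each tested member's log2 fold change (horizontal axis) when 1 library was left out (orange bars) and under the other settings with all 4 libraries (grey bars), with the reported value as a red point; the dashed line marks 0. L1cam stays between 0.39 and 0.52, and the orange bars of Nlgn2 (-0.39 to 0.18) and Nrcam (-0.29 to 0.71) cross 0.

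The other genes of these adhesion pathways were described from lists of 119 genes, of which 118 were in the table and 90 were tested. None of the 90 was called by edgeR's quasi-likelihood test, and 7 had an unadjusted p under 0.05. Both REST-/- libraries lay above both WT libraries for 17 of the 90 and below them for 13, and the median log2 fold change was 0.076. Their shares are near those of all genes tested.

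Among the other proteins that bind neurexins, 13 of 18 genes were tested, 7 with a log2 fold change above 0 and 6 below, with a median of 0.014. Igsf21, an immunoglobulin protein that binds neurexin 2 alpha, had 67 and 82 counts in WT, against 182 and 184 in REST-/- ESCs. Both REST-/- libraries were higher, with a log2 fold change of 1.55 (standard error 0.32, unadjusted p = 0.00631, adjusted p = 0.406 by edgeR's quasi-likelihood test). By edgeR's exact test its adjusted p was 0.0234 under tag-wise and 0.0175 under common dispersion, and by DESeq2 it was 0.0252. Adgrl3, a latrophilin, had 49 and 25 counts in WT, against 66 and 45 in REST-/- ESCs, with a log2 fold change of 0.86. The secreted partners Cbln1, which bridges neurexins to a glutamate receptor family protein, and Nxph3, which binds alpha neurexins, were at the other end with log2 fold changes of -0.62 and -0.42, and their groups overlapped.

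LAR-type receptor phosphatases are a separate presynaptic hub with leucine-rich repeat ligands of their own. The list of 25 genes held these phosphatases, their ligands and related leucine-rich repeat proteins that are not LAR ligands, such as Lrrc4 and Flrt1. Of the 25 genes 14 were tested, 12 of them above 0 and 2 below, with a median log2 fold change of 0.32 and 0 called. Lrrc4 (0.93) and Slitrk5 (0.82) had the largest log2 fold changes and Flrt1 (-0.52) and Lrfn1 (-0.22) the smallest. Slitrk5 had 189 counts in REST-/- replicate 1 and 96, 96 and 99 in the other libraries. Of 20 other synaptic adhesion genes 17 were tested, 8 above 0 and 9 below, with a median of -0.015. Cadm3, of the SynCAM family, had 28 and 31 counts in WT, against 68 and 62 in REST-/- ESCs, a log2 fold change of 1.40 (standard error 0.35, unadjusted p = 0.0125, adjusted p = 0.528 by edgeR's quasi-likelihood test). Efnb2, an ephrin, was at 0.65, Tenm4, a teneurin, at -0.48 and Ephb1, an ephrin receptor, at -0.78.

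Of 17 genes of the L1 family and other neural immunoglobulin adhesion proteins 11 were tested, with a median log2 fold change of 0.67, 8 above 0 and 3 below. Both REST-/- libraries lay above both WT libraries for 4 of the 11, against 16.5% of all genes tested, and below them for 3, against 15.4%. Ncam1, the neural cell adhesion molecule, had 621 and 427 counts in WT, against 277 and 105 in REST-/- ESCs, a log2 fold change of -1.22 (standard error 0.45, unadjusted p = 0.0482, adjusted p = 0.739 by edgeR's quasi-likelihood test). It was -1.92 without REST-/- replicate 1 and -0.75 without REST-/- replicate 2. Dscam had 15 and 20 counts in WT, against 5 and 8 in REST-/- ESCs, a log2 fold change of -1.15. Cntn3, a contactin (1.08), and Cntnap1, the contactin partner of paranodal junctions (0.96), had the largest log2 fold changes on the list.

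The cytoplasmic partners of these receptors are scaffolds of the synapse and ankyrins and related linkers to the cytoskeleton. Of 30 such genes 27 were tested, 14 above 0 and 13 below, with a median log2 fold change of 0.073 and 0 called. Cask, a scaffold kinase that binds neurexin tails, had 38.9 and 41.2 CPM in WT and 38.8 and 38.8 CPM in REST-/- ESCs, a log2 fold change of -0.044 with a 95% interval of -0.44 to 0.35. Dlg4, the scaffold PSD-95 of excitatory synapses, was at 0.23 and Gphn, the gephyrin scaffold of inhibitory synapses, at -0.10, and both had overlapping groups. Ank1, an ankyrin, had 50 and 37 counts in WT, against 88 and 149 in REST-/- ESCs, a log2 fold change of 1.75 (standard error 0.45, unadjusted p = 0.0143, adjusted p = 0.559 by edgeR's quasi-likelihood test). By edgeR's exact test with common dispersion Ank1 passed the threshold (adjusted p = 0.00573). Shank2, a postsynaptic scaffold, was at 0.74, and Ank3, a further ankyrin, and Msn, moesin, were both at -0.32.

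All 7 genes listed for the shedding or further cleavage of neurexins, neuroligins or L1 proteins were tested, 3 above 0 and 4 below, with a median log2 fold change of -0.065. Adam10 had 43.2 and 39.1 CPM in WT and 32.5 and 26.0 CPM in REST-/- ESCs, so that both REST-/- libraries were lower, with a log2 fold change of -0.49 (standard error 0.19, unadjusted p = 0.0533, adjusted p = 0.758 by edgeR's quasi-likelihood test). Bace1, the beta-secretase, was at -0.24, Ncstn, a gamma-secretase subunit, at 0.22 and Mmp9, a matrix metalloprotease, at 0.88 (0.44 without WT replicate 1 and 1.49 without WT replicate 2).

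**Figure D5:**
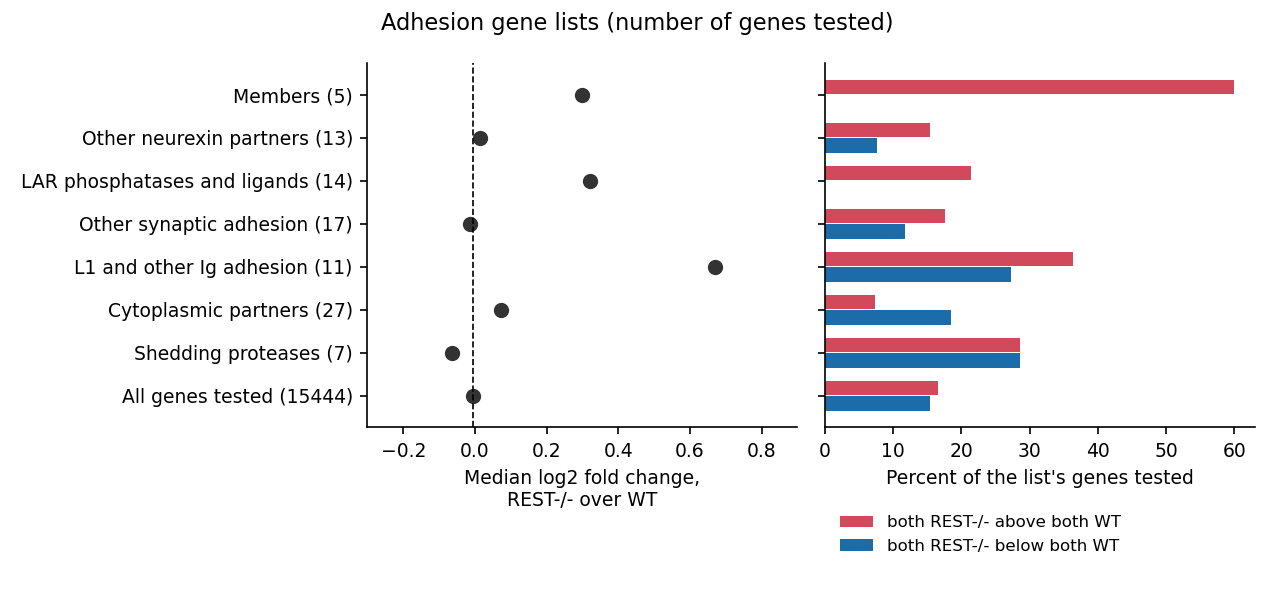
Left, median log2 fold change of REST-/- over WT for the members, 6 lists of related genes and all genes tested (the dashed line is the median of all); right, percent of each list's tested genes with both REST-/- libraries above (red) or below (blue) both WT libraries. All genes tested stand at 16.5% above and 15.4% below, and the medians run from -0.065 for the proteases to 0.67 for the L1 and other immunoglobulin genes.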

How the data were processed

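Total RNA of 2 WT and 2 REST-/- mouse ESC cultures was made into libraries with the TruSeq RNA v2 kit, which does not mark strand. The authors mapped the reads with Subread and deposited whole-number counts per gene from featureCounts, without normalization. mm9 is the build in the submitters' processing notes, and the annotation and strand setting are not given in the sources used here. Of 26669 rows, 368 with no identifier or count were left out. Symbols came from the table and from RefSeq (GRCm38.p6, 24191 identifiers matched). Positions, exon lengths and overlaps came from GENCODE M1 on mm9 (21896 identifiers, 95.1% of counts). Nlgn4l was not analysed here.

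Counts were scaled by TMM, filtered by filterByExpr and compared with edgeR's quasi-likelihood test (edgeR 4.0.16, limma 3.58.1, R 4.3.3; prior count 0.125), with genotype alone in the model and Benjamini-Hochberg adjustment over all 15444 genes tested at a threshold of 0.05. CPM used TMM-scaled library sizes, and RPKM divided them by joined exon length. Tables and the motif search used Python 3.11.15, numpy 2.4.6 and pandas 2.3.3. The tests were run on simulated counts in which 200 genes differed by 2 on the log2 scale. The simulated spread was smaller than that of these data (common dispersion 0.0754), with no effect shared by same-numbered libraries. That run checks the code and does not measure power or false calls for these data.

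The members and gene lists were chosen with earlier results of these data known. Genes named were all members, other genes of their families (1 is not reported here), Cask, Dlg4, Gphn, Adam10, the host genes Ctnna1 and Ctnna2, Rest, any list gene past the threshold, and the 2 largest and 2 smallest log2 fold changes of each list. Med12, Slc22a12, Gm14964, Gm14967 and Arhgap4 were added for their exon overlap with members and Lum after its count of 0 was seen. Marker lists are given only as counts and summed levels. Alternatives were 3 other scalings (RLE, upper quartile, library size alone), 2 other filters, DESeq2 1.42.0, edgeR's exact test under either a tag-wise or a common dispersion, a replicate block, a prior count of 2 and each library left out.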

Additional observations from a re-analysis of the deposited data

How the results depend on the processing

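None of the 5 tested members was called under any of the 14 alternatives, and 67 of their 70 log2 fold changes kept their direction. The number of genes called over the whole table, 9 as reported, was 53 with no filter, 3 with at least 10 counts in every library, 238 with DESeq2, and 277 and 344 with edgeR's exact test under tag-wise and common dispersion. With the replicate number as a block it was 2621 (1308 higher, 1313 lower), with 0 members among them and lowest adjusted p-values of 0.0597 for L1cam and 0.0615 for Nrxn2. Same-numbered libraries deviated together (correlation 0.766 over 15444 genes), but no source links them and there are 2 pairs, so the numbers were not taken as pairs. Under the block, 11 of the other named adhesion genes and Rest passed the threshold: the adjusted p was 0.00203 for Igsf21, 0.00416 for Ncam1, 0.00495 for Msn, 0.00604 for Tenm4, 0.00667 for Adam10, 0.0101 for Ank1, 0.0104 for Nfasc and Efnb2, 0.0129 for Cadm3, 0.0434 for Ncstn, 0.0442 for Mmp9 and 0.00166 for Rest. With 1 library left out, 60 to 113 genes were called: 72 without WT replicate 1, 113 without WT replicate 2, 68 without REST-/- replicate 1 and 60 without REST-/- replicate 2. The genotype left with 1 library was then assumed to vary like the other. The cause of these shifts was not tested.

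With 1 library left out, the log2 fold changes of Nlgn2 (-0.39 to 0.18), Nrcam (-0.29 to 0.71), Cbln1 (-1.17 to 0.25), Nxph3 (-0.89 to 0.26), Flrt1 (-1.03 to 0.047), Chl1 (-0.99 to 1.04), Dlg4 (-0.04 to 0.56), Ank3 (-0.70 to 0.20) and Ctnna1 (-0.065 to 0.33) changed sign. Those of Nrxn2 (0.19 to 0.89), Nlgn3 (0.064 to 0.34), Nfasc (0.41 to 1.45), Ncam1 (-1.92 to -0.75), Mmp9 (0.44 to 1.49), Adgrl3 (0.54 to 1.29), Slitrk5 (0.42 to 1.12), Lrrc4 (0.55 to 1.22), Efnb2 (0.30 to 0.93), Tenm4 (-0.75 to -0.24), Dscam (-1.65 to -0.75), Shank2 (0.23 to 1.28), Ctnna2 (0.50 to 1.12), Lrfn1 (-0.45 to -0.0061), Bace1 (-0.38 to -0.11), Gphn (-0.16 to -0.036) and Cask (-0.092 to -0.00016) kept their sign but moved by over 1.5 times. Of 459 values of the other named genes, 431 kept direction and side of the threshold. Of the members, 2 had a full RE1 match within 20 kb of a start site, 1 within 1 kb, and 2 when the whole gene was searched; with 11 or more positions these numbers were 3, 2 and 5. Counted from the 5′ end of the gene alone, an alternative chosen after seeing the data, the full matches were 1 within 20 kb and 0 within 1 kb. Depth limits Nrxn3, Nlgn1, Lrrtm1 and Lrrtm2, for which neither a level nor a difference could be measured.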
